A study of Mus musculus with 3 samples.

Results

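Gja1, Gjb2, Gjb5, Gjb6 and Gjc1 are 5 of the 20 connexin genes listed in the count tables, which hold 32285 genes in all. The list was set with earlier results of these data known, and its levels were followed over every marker-gated class of mouse back skin, in epidermis, hair follicle, sebaceous gland and dermis. The study profiled skin during hair follicle aging by single-cell RNA sequencing (scRNAseq), and 3 libraries entered here: P38 (postnatal day 38, male), 6 months (female) and 12 months (male). All 3 are labelled Wildtype and untreated, and the methods name the K14-H2BGFP line, which carries a fluorescent histone under a keratin promoter and was used to sort epithelial cells at all 3 ages. The study describes the hair cycle as catagen at P38, mostly anagen at 6 months and mixed at 12 months. Each age is 1 library, so age, sex, hair cycle stage, depth and run cannot be told apart, and differences between ages are given as levels with counting error and no test. The methods describe a flow cytometry sort by surface proteins and this reporter, while the labels name total back skin and no sort, and such a sort can set the number of cells in each class.

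Connexins are membrane proteins that assemble into rings called hemichannels, and hemichannels of touching cells dock into gap junction channels that pass ions and small molecules. In skin, keratinocytes of different layers and follicle regions are known to use different connexins, and inherited changes in several of them cause human disorders of cornification, of hair and of hearing. Gja1 is the most widely used connexin of mammalian tissues, Gjb2 and Gjb6 are partners in the inner ear and in keratinocytes, Gjb5 is a keratinocyte connexin, and Gjc1 is known from smooth muscle, heart and mesenchymal cells.

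The kept cells numbered 2109 at P38, 3502 at 6 months and 3240 at 12 months, with medians of 16170, 1019 and 11438.5 unique molecular identifiers (UMIs, each of which counts 1 captured transcript) per cell. The filter was the study's own, and at 6 months it left far more cells here than the study describes, many of them shallow, while the P38 number was the same and that at 12 months nearly so. A cell was placed in 1 of 21 classes by a panel of marker genes that held no connexin, and 6562 of 8851 kept cells were placed. Levels are UMIs of a gene scaled to an equal UMI total in each class of each library (CPM), and are given for the 43 sums of a class in a library with at least 20 cells. Values of 3 ages stand in the order P38, 6 months, 12 months. Intervals in parentheses are exact 95% intervals and cover counting error only. The interfollicular epidermis is written as IFE, the upper hair follicle as UpHF, the sebaceous gland as SG, the hair germ as HG, the dermal papilla as DP and hair follicle stem cells as HF-SC. Niche is the study's name for the inner bulge niche, and migNiche (migratory niche) its name for a population set apart from that niche. In UpHF and IFE suprabasal the leading markers were high: Krt79 stood at 6881, 7979 and 8084 CPM in UpHF over the 3 ages, and Krt1 at 4770, 3632 and 4521 CPM in IFE suprabasal. Of the 10 genes most raised in a gate over all other cells, 4 were panel markers in each of these gates, but 0 in IFE basal and 1 in HG. Krt14 stood at 12374, 12066 and 11823 CPM in IFE basal, below the 18081 and 20034 CPM of migNiche at P38 and 6 months. The gate for arrector pili muscle (APM) at 6 months went against its label, with 7338 CPM of the keratinocyte gene Krt14 in 30 cells, and the melanocyte gate at 6 months held 1430 CPM of Krt14 in 20 cells. The connexin levels of these 2 gates are therefore not read as muscle or melanocyte levels. The APM gate at 12 months held 2143 CPM of Krt14 in 23 cells, beside 2616 CPM of its marker Rgs5, so its levels are those of a mixed gate. The gates for UpHF, SG, IFE granular and inner root sheath (IRS) with hair shaft at 6 months, and SG at 12 months, held shallow cells, with medians between 576 and 667 UMIs. Barcodes shared by libraries numbered 3 for P38 and 6 months, 1 for P38 and 12 months and 81 for 6 and 12 months. The source of the higher number for 6 and 12 months was not tested. These cells were kept, and the tests take the 3 libraries as separate.

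Gjb2 and Gjb6 lie next to each other on chromosome 14 with 18600 bp between them, and Gja1, Gjb5 and Gjc1 lie on chromosomes 10, 4 and 11. In the mm10 (GRCm38) annotation, Gja1 (ENSMUSG00000050953) spans chr10:56377330-56402513 on the plus strand. Gjb2 (ENSMUSG00000046352) spans chr14:57098600-57104702, Gjb6 (ENSMUSG00000040055) chr14:57123303-57133611, Gjb5 (ENSMUSG00000042357) chr4:127354809-127358181 and Gjc1 (ENSMUSG00000034520) chr11:102799579-102819700, all 4 on the minus strand. The annotation placed no other gene over any of the 5. The promoters of Gja1, Gjb2 and Gjb6 are shown because these genes were high in the same classes at 6 months, and that of Gjb5 because it was low there. They are the 250 bases before each start in RefSeq (GRCm38.p6), with motif letters in capitals.
Gja1, chr10:56377050-56377299, plus strand: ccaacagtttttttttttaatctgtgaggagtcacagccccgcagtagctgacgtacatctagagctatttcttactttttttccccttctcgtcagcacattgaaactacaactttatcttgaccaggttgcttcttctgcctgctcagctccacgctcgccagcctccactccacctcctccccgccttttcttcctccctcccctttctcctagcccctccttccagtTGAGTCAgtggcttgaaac
Gjb2, chr14:57104703-57104952, minus strand: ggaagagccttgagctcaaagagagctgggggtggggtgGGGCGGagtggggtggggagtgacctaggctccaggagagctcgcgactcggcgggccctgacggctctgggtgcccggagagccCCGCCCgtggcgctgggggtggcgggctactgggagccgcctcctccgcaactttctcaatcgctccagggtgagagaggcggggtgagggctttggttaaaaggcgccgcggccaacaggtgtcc
Gjb6, chr14:57133612-57133861, minus strand: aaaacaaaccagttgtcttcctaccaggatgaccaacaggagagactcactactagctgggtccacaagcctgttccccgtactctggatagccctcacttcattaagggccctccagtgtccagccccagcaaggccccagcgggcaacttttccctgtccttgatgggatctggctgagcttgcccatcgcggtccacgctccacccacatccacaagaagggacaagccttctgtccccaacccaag
Gjb5, chr4:127358165-127358414, minus strand: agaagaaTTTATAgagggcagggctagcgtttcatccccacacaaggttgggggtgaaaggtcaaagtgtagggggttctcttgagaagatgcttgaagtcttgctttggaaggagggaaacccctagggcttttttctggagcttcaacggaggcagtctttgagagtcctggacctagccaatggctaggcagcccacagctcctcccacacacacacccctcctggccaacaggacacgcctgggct
Capitals mark matches on either strand to 3 motifs. The AP-1 motif, spelled TGAGTCA, occurs in 4.45% of 32536 RefSeq promoter windows of this length. The GC box, spelled GGGCGG, occurs in 33.0% of them. The TATA box, spelled TATAAA, occurs in 12.3%. Gja1 held 1 AP-1 match, starting 19 bases before the start. Gjb2 held 2 GC box matches, starting 211 and 126 bases before the start, in a window of 69.2% G and C against a median of 52.4% over all windows. Gjb5 held 1 TATA box match, 243 bases before the start and on the opposite strand, and the Gjb6 window held none of these letters. The motifs do not overlap one another here, and a match is a description of sequence and not a site.

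Gja1 was the connexin with the most UMIs in 35 of the 42 class sums that held any connexin UMI, in 27 of 32 epithelial sums and 8 of 10 others. No minimum number of UMIs was set. The 8 others include the mixed APM gates at 6 and 12 months and the mixed melanocyte gate. They also include T cells at 6 months, with 8 connexin UMIs, and Langerhans cells and macrophages at 12 months, with 10. The rest are fibroblasts and DP. UMIs count the tagged ends of transcripts, so levels of different genes are set side by side with no correction for length. The highest Gja1 level was in migNiche, at 3345 CPM at P38 (95% counting interval 3278 to 3414) and 4938 CPM at 6 months (4837 to 5039). HG came next, with 1549, 3712 and 446 CPM over the 3 ages. These 2 classes stood above every other epithelial class of the same library at P38 and 6 months.

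**Figure D1:**
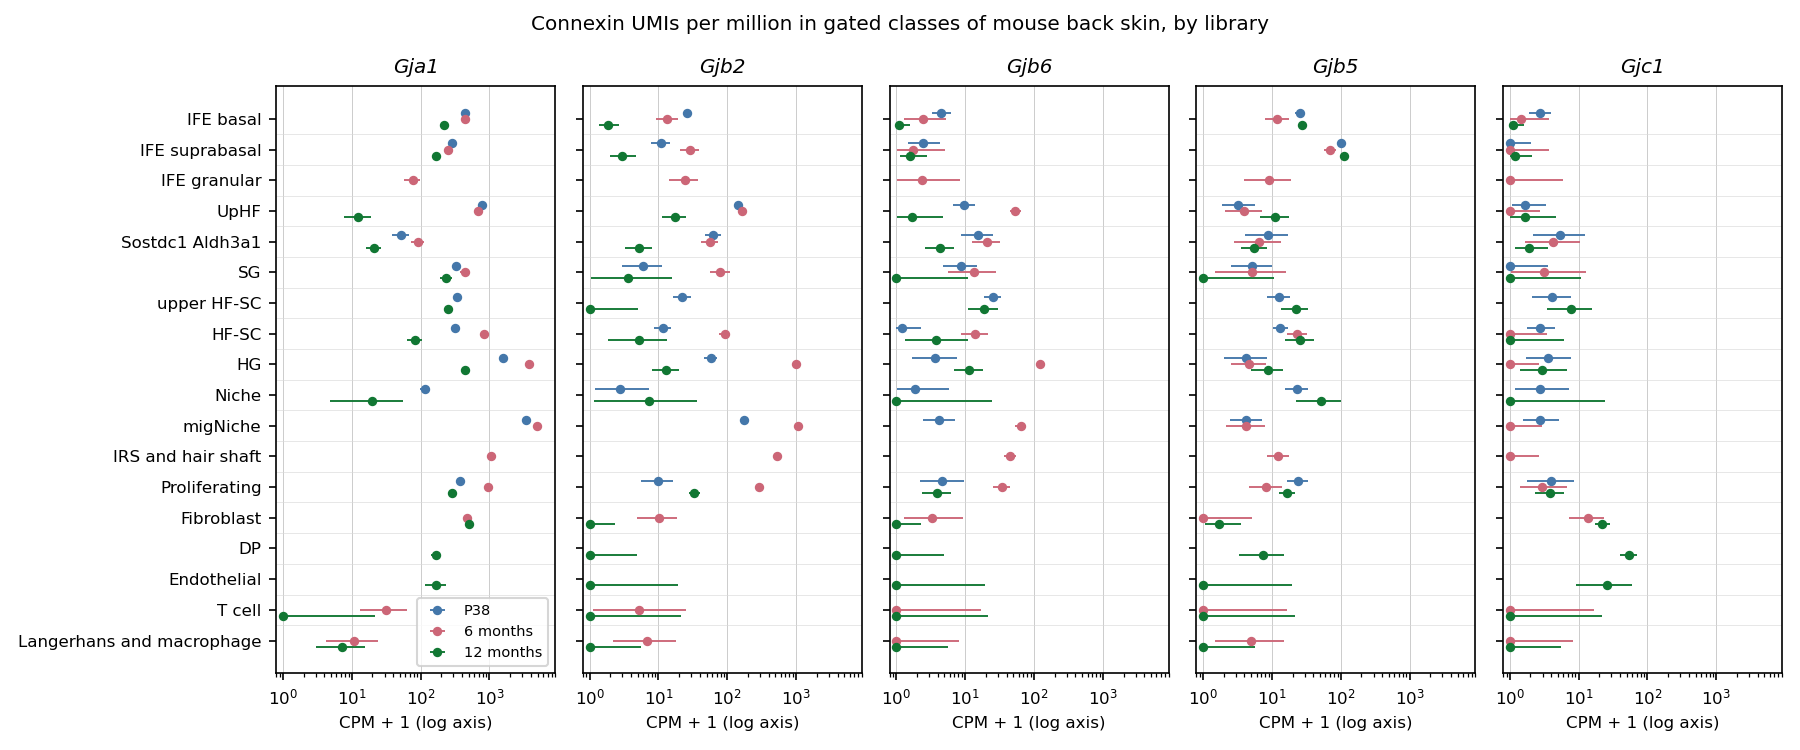
Level of each connexin in 18 gated classes (rows), as CPM + 1 on a log axis, with 1 panel per gene and 1 point per library; bars are exact 95% counting intervals. Gja1 points of migNiche at P38 and 6 months lie at 3345 and 4938 CPM, Gjb5 is highest in IFE suprabasal and Gjc1 in the dermal rows.

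In the epidermis, Gja1 held 287, 247 and 165 CPM in IFE suprabasal over the 3 ages, against 446, 440.2 and 221 CPM in IFE basal. SG held 328, 435 and 235 CPM, and proliferating cells 368, 968 and 284 CPM. HF-SC held 312, 828 and 81.5 CPM, a wider range than in either epidermal class. UpHF held 770.4 and 679 CPM at P38 and 6 months but 11.4 CPM at 12 months (6.66 to 18.3), from 17 UMIs. The class marked by Sostdc1 and Aldh3a1 had the lowest Gja1 on average among the classes with all 3 libraries, at 51.0, 90.8 and 19.9 CPM. Upper HF-SC held 335 CPM at P38 and 246 CPM at 12 months, IFE granular 76.0 CPM and IRS with hair shaft 1049.9 CPM at 6 months.

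Over the 8 epithelial classes with all 3 libraries, ordered by the mean of log2(CPM + 1), only the step between HG and the next class (proliferating cells), of 1.55, was larger than the larger SD of the pair, of 1.53 (n = 3 libraries). Each of the neighbours further down the order differed by less than that spread. In all 8 classes Gja1 was lowest at 12 months. It was highest at 6 months in 5 of them and at P38 in 3.

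The share of cells with Gja1 was compared after each cell had been thinned to 2000 UMIs, which leaves out shallower cells. In migNiche 89.1% of 174 cells at P38 and 100% of 123 cells at 6 months held Gja1, against 98.3% of 178 and 87.95% of 166 cells before thinning. In HG the thinned shares were 70.6%, 95.3% and 47.1% of 109, 149 and 102 cells. In UpHF at P38, 31.4% of 153 thinned cells held Gja1 (24.1% to 39.4%), against 50.7% of 377 IFE basal cells, although the CPM of UpHF was the higher one. Gja1 UMIs in UpHF were thus held by fewer cells than in IFE basal. T cells were taken to lack the connexins of keratinocytes, an assumption that was not tested. For Gja1, 4.08% of 49 thinned T cells held it at 6 months. At 12 months 0 of 39 did, with an upper limit of 9.03%. Before thinning, the 7 Gja1 UMIs at 6 months lay in 2 of 50 T cells. Whether T cells make Gja1 themselves was not tested. Their Gja1 level was 30.1 CPM at 6 months (12.1 to 62.0) and 0 of 178779 UMIs at 12 months, with an upper limit of 20.6 CPM, so the 11.4 CPM of UpHF, the 18.9 CPM of Niche (3 UMIs) and the 19.9 CPM of the Sostdc1 and Aldh3a1 class at 12 months were within what T cells allow. Median depths of T cells were 4322.5 and 4390 UMIs, and P38 had no T cell sum.

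Niche was compared with HF-SC, and migNiche with Niche. The p-values of all tests rest on how class levels vary between libraries of different age, sex and depth, beyond a shift shared by a library. This spread was estimated over all 43 sums in the fit, the APM and melanocyte gates included. Gja1 averaged lower in Niche than in HF-SC without passing the test. Niche held 117 CPM at P38 and 18.9 CPM at 12 months, against 312 and 81.5 CPM in HF-SC, and Niche at 6 months had too few cells for a sum, 14. The fitted log2 fold change was -1.83 ± 0.82 (SE), with an unadjusted p of 0.0329 and an adjusted p of 0.530 in edgeR's quasi-likelihood test, and it was negative under all 12 alternatives tried. In this comparison 0 of 10 connexins tested passed, where 0.204% of 14195 genes did, 0.120% as higher and 0.0845% as lower. At an unadjusted p below 0.05 there were 2 connexins, and DESeq2 also called 0. Between migNiche and Niche at P38, the log2 ratio of CPM was 4.84 for Gja1 (4.596 to 5.10) and 6.67 for Gjb2 (4.81 to 9.72), from 9372 and 492 UMIs in migNiche and 135 and 2 UMIs in Niche. Gjb5 went the other way, at -2.81 (-4.08 to -1.67), from 9 and 26 UMIs. These ratios are descriptions, since the study described migNiche by its gap junction genes and part of its panel came from the study's comparison of the same 2 classes. They compare 2 groups of cells in 1 library.

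HG was compared with HF-SC. Gjb5 was lower in HG, and Gja1, Gjb2 and Gjb6 were each higher in HG in all 3 libraries while missing the threshold. Gjb5 held 3.25, 3.61 and 7.86 CPM in HG over the 3 ages, against 12.4, 22.5 and 24.9 CPM in HF-SC, and the ranges did not overlap. Its log2 fold change was -2.005 ± 0.47 (adjusted p = 0.0295, edgeR), the 1 call among 10 connexins where 0.958% of all genes tested were called in either direction, 0.296% as higher and 0.662% as lower. Gja1 had a log2 fold change of 2.23 ± 0.63 (adjusted p = 0.0886), Gjb2 of 2.91 ± 0.81 (adjusted p = 0.0840) and Gjb6 of 3.22 ± 0.86 (adjusted p = 0.0686). The Gjb5 call was lost without P38 (-2.09, adjusted p = 0.126), without 6 months (-1.59, 0.368) and without 12 months (-2.28, 0.116), and also with no library term (0.257) and with no upper limit on genes per cell (0.0503). Gja1, Gjb2 and Gjb6 passed under 3, 4 and 4 of the 12 alternatives, including a doubled gate margin with adjusted p of 0.0427, 0.0176 and 0.0155, and Gjb2 also without P38 (2.90, adjusted p = 0.0212). Nppc, a marker of the migNiche panel, was among the 10 leading genes of the HG gate, and its part in these levels was not tested.

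**Figure D2:**
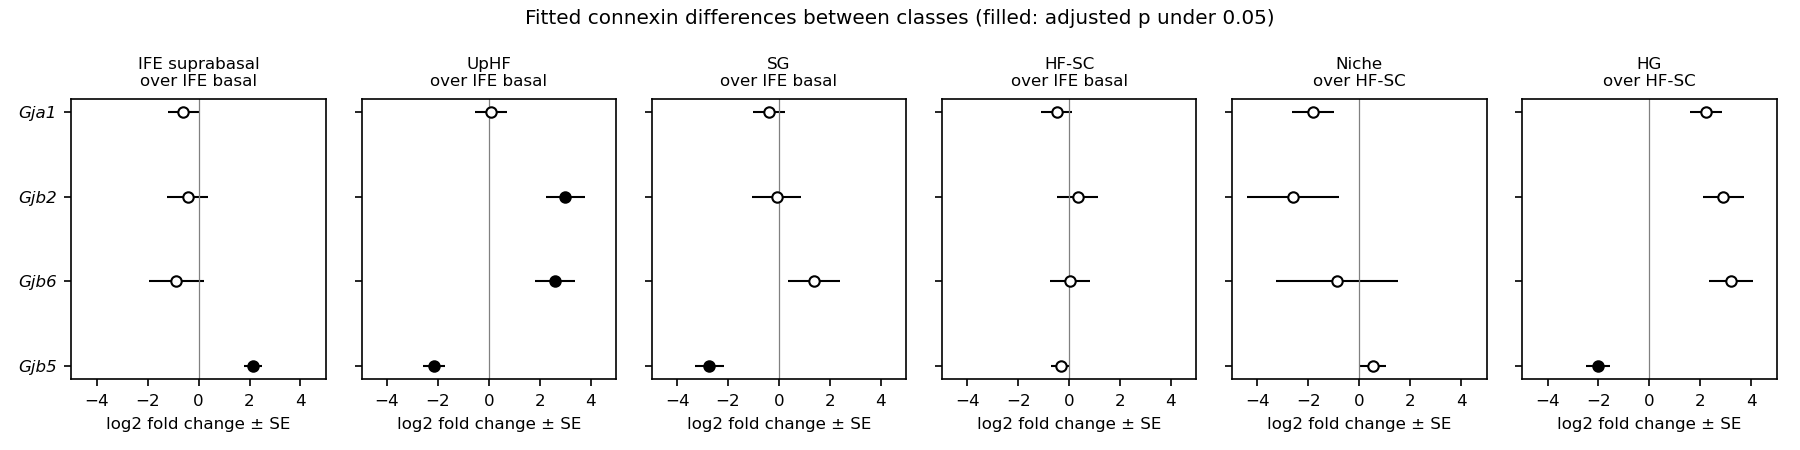
Fitted log2 fold change with its standard error (horizontal axis) for 4 connexins (rows) in the 6 tested class comparisons (panels); filled points passed an adjusted p of 0.05 in edgeR. Gjb5 is filled on the right in IFE suprabasal over IFE basal, at 2.14, and on the left in UpHF, SG and HG.

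Gjb2 and Gjb6 were high in the same classes at 6 months and low in most classes at 12 months. Gjb2 held 176 and 1067 CPM in migNiche at P38 and 6 months, and 56.5, 1001 and 11.8 CPM in HG over the 3 ages. Gjb6 held 3.21 and 63.0 CPM in migNiche, and 2.60, 122 and 10.5 CPM in HG. IRS with hair shaft, a class of 484 cells at 6 months, held 526 CPM of Gjb2 and 44.3 CPM of Gjb6. Proliferating cells held 8.84, 285 and 32.4 CPM of Gjb2, and 3.68, 32.8 and 2.84 CPM of Gjb6. At 12 months the HG levels of both genes and the Gjb6 level of proliferating cells lay under 20.6 CPM. This is the upper limit that 0 of 178779 UMIs in T cells leave. Fibroblasts at 12 months, a larger sum, held 0 UMIs of both genes, with an upper limit of 1.32 CPM for each. The intervals of HG for Gjb2 (6.99 to 18.6) and Gjb6 (5.99 to 17.0) lay above the fibroblast limit. So did that of proliferating cells for Gjb6 (1.36 to 5.23). Of the 8 classes with all 3 libraries, 6 had their highest Gjb2 at 6 months, the other 2 at P38, and 7 had their lowest at 12 months. Gjb6 was highest at 6 months in 6 classes too. Over these classes no step between neighbours in the order of Gjb2 or of Gjb6 was larger than the spread between libraries.

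UpHF was compared with IFE basal. Gjb2 and Gjb6 were higher and Gjb5 lower in UpHF, while Gja1 was higher at P38 and 6 months and lower at 12 months. Gjb2 held 143, 162 and 16.1 CPM in UpHF over the 3 ages, against 25.3, 12.4 and 0.874 CPM in IFE basal. In each library UpHF was the higher one, although UpHF at 12 months was below IFE basal at P38. Gjb2 had a log2 fold change of 3.01 ± 0.75 (adjusted p = 0.00396, edgeR). Gjb6 held 8.74, 52.5 and 0.673 CPM in UpHF, against 3.53, 1.44 and 0.109 CPM in IFE basal, and its log2 fold change was 2.62 ± 0.79 (adjusted p = 0.0168). Gjb5 held 2.27, 2.89 and 10.1 CPM in UpHF, against 24.3, 11.0 and 26.7 CPM in IFE basal, with a log2 fold change of -2.15 ± 0.44 (adjusted p = 0.000580). These are 3 of the 5 members, where 20.5% of all genes tested were called, 10.7% as higher and 9.80% as lower.

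The Gjb2 call in UpHF was lost without 12 months (2.83, adjusted p = 0.0712), with classes from clusters (2.35, 0.0967) and with no library term (3.15, 0.198). Gjb6 was lost without 6 months (1.65, adjusted p = 0.293), without 12 months (2.58, 0.0974) and under 3 other alternatives, and Gjb5 without P38 (-1.55, 0.0796). Gja1 differed by 0.10 ± 0.62 (adjusted p = 0.972), and its sign turned under 3 of 12 alternatives. UpHF cells at 6 months had a median of 599 UMIs against 14900 in IFE basal, and the part of this gap in depth was not tested. T cells held 1 UMI of Gjb2 at 6 months, with an upper limit of 24.0 CPM, and 0 at 12 months. The Gjb2 levels of IFE basal at 6 and 12 months and of UpHF at 12 months were within what T cells allow. Fibroblasts at 12 months held 0 UMIs of Gjb2 in a larger total, with an upper limit of 1.32 CPM. The interval of UpHF at that age (10.3 to 24.0) lay above the fibroblast limit, and the level of IFE basal below it. T cells held 0 UMIs of Gjb6 at both ages, with upper limits of 15.9 and 20.6 CPM, and at these ages only UpHF at 6 months was above its limit. At 12 months Gjb6 rested on 1 UMI in UpHF and 1 in IFE basal.

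SG was compared with IFE basal, with Gjb5 as the 1 member that passed. Gjb5 held 4.21, 4.20 and 0 CPM in SG over the 3 ages, from 6, 2 and 0 UMIs, against 24.3, 11.0 and 26.7 CPM in IFE basal, and had a log2 fold change of -2.73 ± 0.58 (adjusted p = 0.000718, edgeR) where 22.9% of genes were called, 9.64% as higher and 13.2% as lower. It was called under all 12 alternatives. Gja1 was at -0.39 ± 0.62 (adjusted p = 0.737). Gjb2 was at -0.08 ± 0.96, a value that became 2.22 (adjusted p = 0.0301) without P38, in which SG held 4.91 CPM against 25.3 CPM in IFE basal. HF-SC was compared with IFE basal as a pair of stem cell compartments. Here 0 of 10 connexins passed where 15.8% of all genes did, 8.35% as higher and 7.40% as lower, 1 connexin had an unadjusted p below 0.05, and DESeq2 called 0. Gja1 was at -0.49 ± 0.61 (adjusted p = 0.685). Gjb2 was at 0.34 ± 0.80 and passed without P38, at 2.40 (adjusted p = 0.0166). Of the genes called, 53.0% were higher in HF-SC, or 63.2% with DESeq2 size factors, which moved the median of all genes by 0.11 in the HF-SC and SG comparisons.

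Gjb5 was highest in the suprabasal epidermis, the layer of differentiating keratinocytes. It held 98.6, 70.0 and 112 CPM in IFE suprabasal over the 3 ages, against 24.3, 11.0 and 26.7 CPM in IFE basal, and no suprabasal value overlapped a basal one. The log2 fold change was 2.14 ± 0.36 (adjusted p = 0.000111, edgeR), and Gjb5 was the only connexin of 10 tested that passed, in a comparison where 9.25% of genes were called, 4.04% as higher and 5.21% as lower. It was called under all 12 alternatives, with log2 fold changes between 1.99 and 2.68 and adjusted p between 1.95e-06 and 0.00750. After thinning to 2000 UMIs, 17.8%, 13.9% and 16.9% of IFE suprabasal cells held Gjb5 at the 3 ages, against 5.31%, 4.38% and 4.20% of IFE basal cells. The suprabasal cells at 6 months had a median of 1811 UMIs against 14900 in IFE basal.

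Gja1 was lower in IFE suprabasal than in IFE basal in every library without passing the test, with a log2 fold change of -0.61 ± 0.61 (adjusted p = 0.691, edgeR). In IFE granular at 6 months, Gjb5 stood at 8.14 CPM.

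Outside the suprabasal epidermis, Gjb5 was between 0 and 50.3 CPM. Niche at 12 months gave this highest value from 8 UMIs in 21 cells, and Niche at P38 held 22.5 CPM. Among the classes with all 3 libraries, the step between IFE suprabasal and the next class (IFE basal), of 2.19 on the log2(CPM + 1) scale, was larger than the larger SD, of 0.66. Gjb5 was highest at 12 months in 5 of the 8 classes and at P38 in 3, and in none at 6 months, where Gja1, Gjb2 and Gjb6 were mostly highest. The levels of HG, UpHF and SG at 6 and 12 months, and of migNiche and IFE basal at 6 months, were within what T cells allow. There 0 of 232562 and 0 of 178779 UMIs leave upper limits of 15.9 and 20.6 CPM. Fibroblasts had lower limits, of 4.20 CPM at 6 months and 2.58 CPM at 12 months. At 12 months the intervals of HG (4.06 to 13.7) and UpHF (5.65 to 16.6) lay above the fibroblast limit, but SG held 0 UMIs. At 6 months only IFE basal of these classes lay above it with its whole interval (6.98 to 16.5).

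Gjc1 was highest in gates of dermal cells. Among DP, fibroblasts and endothelial cells, only DP lay with its whole interval above what T cells allow. DP at 12 months held 52.6 CPM (38.9 to 69.5) from 49 UMIs in 117 cells. Fibroblasts held 12.51 CPM at 6 months and 21.1 CPM at 12 months, and endothelial cells 24.8 CPM at 12 months, from 5 UMIs in 29 cells. The APM gate held 138 CPM of Gjc1 at 12 months, from 37 UMIs in 23 cells, but also 2143 CPM of Krt14. In the epithelial sums the highest Gjc1 level was 6.68 CPM, in upper HF-SC at 12 months. Within the 12 months library, DP exceeded fibroblasts by 1.32 on the log2 CPM scale (0.74 to 1.89), and fibroblasts exceeded IFE basal by 7.59 (5.06 to 12.9), where IFE basal held 1 UMI of Gjc1. These ratios compare groups of cells of 1 library and carry counting error only. After thinning, 8.62% of 116 DP cells and 2.89% of 242 fibroblasts held Gjc1 at 12 months, against 0 of 39 T cells, which allows up to 9.03%, so the shares do not set these classes apart from T cells. By level, DP lay above the T cell upper limit of 20.6 CPM at 12 months with its whole interval. The intervals of fibroblasts (16.1 to 27.2) and endothelial cells (8.06 to 58.0) included that limit. Fibroblasts at 6 months were below theirs of 15.9 CPM. IFE basal, a far larger sum, held 1 UMI at 6 months and 1 at 12 months, with upper limits of 2.67 and 0.609 CPM. The whole intervals of fibroblasts at both ages (6.25 to 22.4 at 6 months) and of endothelial cells lay above these IFE basal limits.

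Fibroblasts and DP cells also held Gja1. Fibroblasts held 465 CPM at 6 months and 504 CPM at 12 months, against 440.2 and 221 CPM in IFE basal of the same libraries. At 6 months the log2 ratio of 0.08 had an interval of -0.09 to 0.25, and at 12 months it was 1.19 (1.09 to 1.29). DP at 12 months held 167 CPM of Gja1, at a log2 ratio of -1.59 to fibroblasts (-1.84 to -1.35). Gjb2 was at 0 of 2795177 UMIs in fibroblasts at 12 months, with an upper limit of 1.32 CPM, and at 9.10 CPM from 8 UMIs at 6 months. P38 gave no fibroblast or DP sum.

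Co-detection was measured over single cells thinned to 2000 UMIs and set beside the product of both shares, the value that unlinked detection would give. At 6 months, 68.5% of 149 HG cells held both Gja1 and Gjb2 (60.3% to 75.8%), beside a product of 65.2%. In migNiche 63.4% of 123 cells did (54.3% to 71.9%), which equals the share with Gjb2, since every cell held Gja1. At P38 the shares were 20.1% of 174 migNiche cells and 6.42% of 109 HG cells, beside products of 18.4% and 5.18%. In IRS with hair shaft at 6 months 39.8% of 123 cells held both, beside 42.2%. Cells left out for depth at 6 months numbered 361 of 484 in IRS with hair shaft and 43 of 166 in migNiche. In migNiche at 6 months the product equals the share by construction, which leaves nothing to compare. Products lay inside the counting interval in the other 4 sums, but with Gja1 in 89.1% and 95.3% of cells, as in migNiche at P38 and HG at 6 months, a joint share can hardly exceed the product.

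In UpHF 7.84% of 153 cells at P38 held both (4.12% to 13.3%) beside a product of 4.10%, and 8.85% of 113 cells at 6 months (4.33% to 15.7%) beside 4.79%. Of the UpHF cells with Gjb2, 12 of 20 held Gja1 at P38 and 10 of 17 at 6 months, against 27.1% of the cells without Gjb2 at both ages. The UpHF product at P38 lay just below the interval, and cells left out for depth numbered 9 and 194. Gja1 was also the more frequent among cells with Gjb2 in other classes at 6 months. In proliferating cells 84.6% of 26 cells with Gjb2 held Gja1, against 53.0% of those without, and 23.9% of 92 cells held both (15.6% to 33.9%) beside a product of 17.5%. In HG Gja1 was in 102 of 102 cells with Gjb2 against 85.1% of those without, and in HF-SC in 7 of 8 against 33.6%. IRS with hair shaft went the other way, with 79.0% against 88.5%, in the 123 cells deep enough for thinning. For Gjb2 and Gjb6, 12.8% of HG cells at 6 months held both, beside a product of 10.6%. For Gja1 and Gjb5 in IFE suprabasal, 7.98%, 8.33% and 4.14% of cells held both over the 3 ages, beside products of 6.22%, 4.05% and 4.14%. Of 9 sums in which the product came to at least 3 cells for Gja1 and Gjb2, the mixed APM gate at 6 months included, 7 had more cells with both than the product and 1 fewer.

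**Figure D3:**
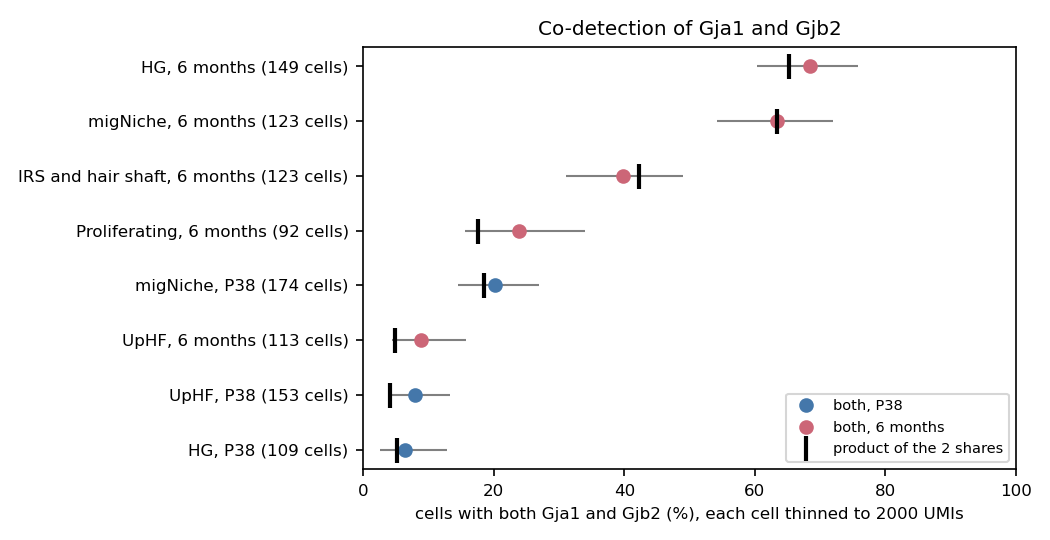
Share of cells with both Gja1 and Gjb2 (horizontal axis, percent) in 8 classes by library (rows), each cell thinned to 2000 UMIs; circles are the measured share with its exact 95% binomial interval and black ticks the product of the 2 shares. Shares run between 6.42% in HG at P38 and 68.5% in HG at 6 months.

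The make-up of the connexin UMIs differed between classes. Gja1 gave 94.3% and 80.6% of them in migNiche at P38 and 6 months, 95.02%, 76.5% and 87.2% in HG over the 3 ages and 71.3%, 83.3% and 77.2% in IFE basal. In IFE suprabasal it gave 51.1%, 51.1% and 40.6%, with Gjb5 at 17.6%, 14.5% and 27.4%. In UpHF it gave 74.4% and 66.6% at P38 and 6 months and 6.07% at 12 months. In fibroblasts Gja1 gave 93.6% and 95.3%, and in DP it gave 70.6% with Gjc1 at 22.2%.

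**Figure D4:**
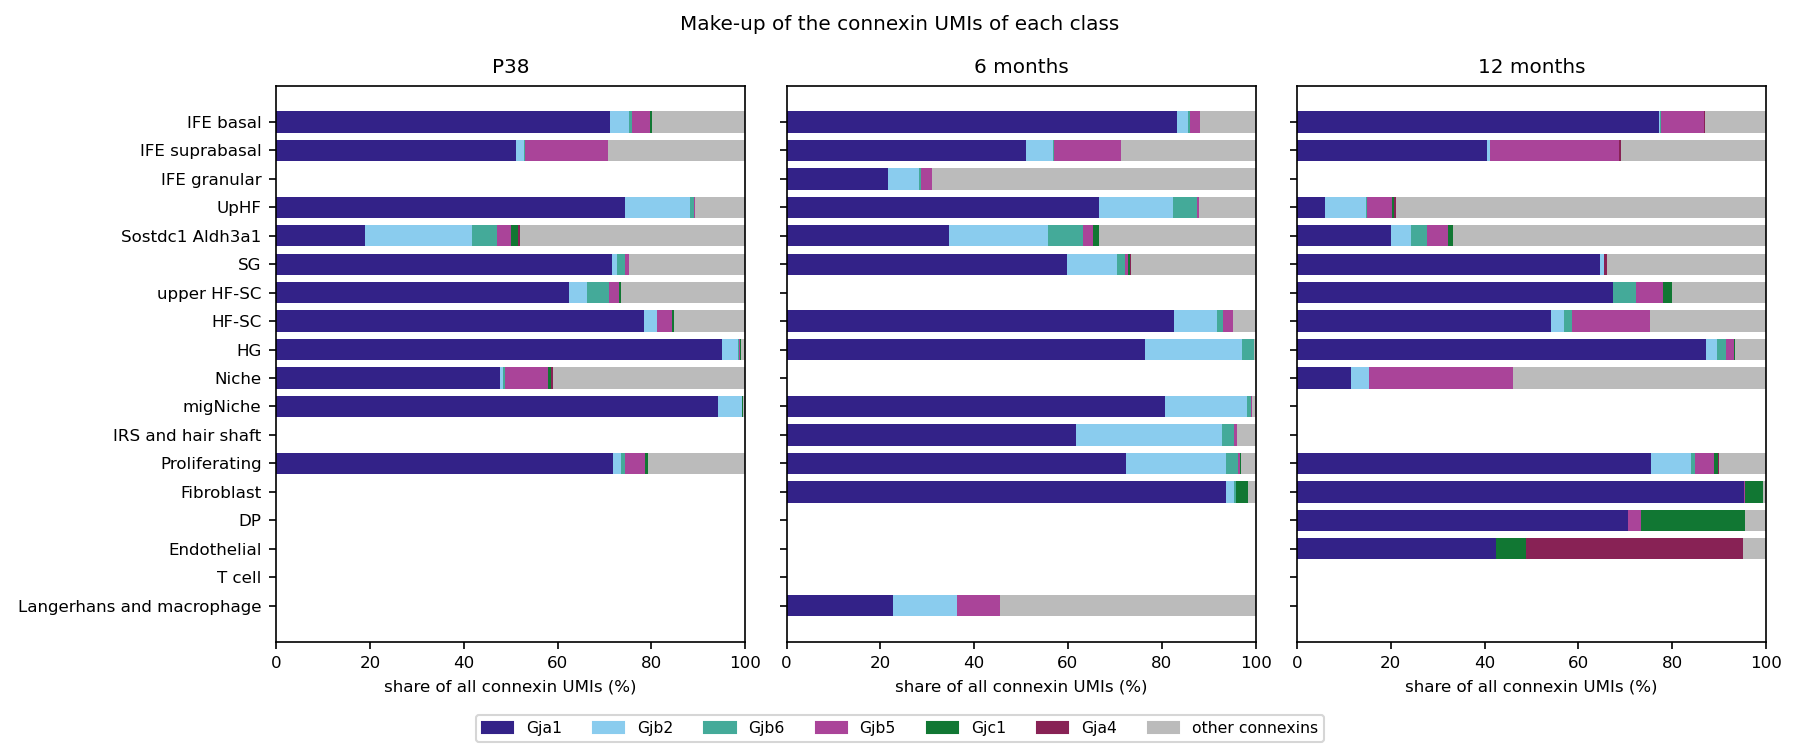
Share of all connexin UMIs (horizontal axis, percent) taken by each gene in a class (rows), with 1 panel per library; classes with under 20 connexin UMIs or too few cells are blank. Gja1 fills most of HG and migNiche, and Gjc1 appears in DP.

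Gja4, known from blood vessel endothelium, held 184 CPM in endothelial cells at 12 months (129 to 253), from 37 UMIs. Gja1 was close to it there, at 169 CPM (117 to 236) from 34 UMIs, so counting error does not set their order. Gja4 also lay outside the endothelial gate. It held 52.2 CPM in the APM gate at 12 months, which also held Krt14. Gjc3, known from myelinating glia, reached 51.8 CPM from 8 UMIs in the melanocyte gate at 6 months, which was mixed. Pannexins form related channels. Panx1 was lower than in IFE basal in UpHF (-1.55 ± 0.33, adjusted p = 0.000909), in SG (-1.53 ± 0.38, 0.00330) and in HF-SC (-1.98 ± 0.35, 0.000116). Panx3 held 1.40, 52.5 and 58.7 CPM in SG and 0 UMIs in IFE basal in each library. It passed edgeR's test (adjusted p = 0.000513) but not that of DESeq2, and no fold is given, since all 3 IFE basal sums were at 0, where a floor of 3 UMIs per library stands at 0.407, 1.44 and 0.328 CPM.

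Genes for partners and regulators of connexins were measured as a list of 7. Against IFE basal, 1 was higher and 2 were lower in UpHF, where 20.5% of all genes were called. In SG 0 were higher and 4 lower, beside 22.9% of all genes, in HF-SC 1 and 1, beside 15.8%, and in IFE suprabasal 0 and 1, beside 9.25%. In edgeR none of the 7 passed for Niche or HG over HF-SC, where 0.204% and 0.958% of all genes did, with 2 and 1 at an unadjusted p below 0.05, and DESeq2 called 1 for Niche (Cav1, -2.34, adjusted p = 0.0473) and 0 for HG. Of the 2 pannexins tested 0 passed there in edgeR or DESeq2, with 0 and 1 at an unadjusted p below 0.05. Cav1, the caveolar coat protein, fell in IFE suprabasal (-1.80 ± 0.46, adjusted p = 0.00978), UpHF (-2.58 ± 0.48, 0.000206) and SG (-2.28 ± 0.51, 0.00128). Tjp1, a junction scaffold that binds Gja1 protein, rose in UpHF (1.21 ± 0.24, adjusted p = 0.000457) and fell in SG (-1.30 ± 0.32, 0.00341). Dbn1, an actin-binding protein reported to stabilise gap junctions, held 7.86, 15.7 and 1.38 CPM in HF-SC, against 1.22, 0 and 0 CPM in IFE basal, from 9, 0 and 0 UMIs. Its fitted log2 fold change of 3.57 ± 0.75 (adjusted p = 0.00104) rests on these few UMIs, and HG held 21.4, 67.8 and 24.2 CPM. The medians of the connexins tested were 0.41, 0.49, 0.56, -0.39, 0.51 and -0.44 in the comparisons of IFE suprabasal, UpHF, SG and HF-SC with IFE basal and of Niche and HG with HF-SC, beside medians over all genes of -0.06, -0.05, -0.16, -0.03, -0.08 and 0.01.

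Likeness of pattern was described by Pearson's r of log2(CPM + 10) over the 43 sums, among 9157 genes that reached 20 CPM in 3 sums. The sums share libraries, depth and free RNA, so r is given with no test. They include the mixed APM and melanocyte gates, and the APM gate at 6 months had the highest Gjb2 and Gjb6 of all sums, at 1722 and 151 CPM. Gjb2 and Gjb6 were each other's nearest gene, at 0.85, but r within the libraries was 0.25 at P38, 0.96 at 6 months and 0.20 at 12 months. Gja1 had Ssr2, Serinc5 and Smtn as its nearest genes (0.78, 0.77 and 0.76), and r of Gja1 with Gjb2 was 0.70 overall and 0.56, 0.84 and 0.27 within libraries. Gjb2 was followed by Psmd12 (0.84) and Pm20d1 (0.80), and Gjb6 by Stbd1 (0.79) and Ggt1 (0.76). Gjb5 was nearest to Krt1, the keratin of suprabasal epidermis that also served as a gate marker, at 0.78, and to Capns2 and 4930430F08Rik (0.78 and 0.76), with r to Krt1 of 0.82, 0.85 and 0.72 within libraries. Gjc1 was nearest to Gucy1b1, Gnb4 and Gm14964 (0.94, 0.94 and 0.91), with r to Gucy1b1 of 0.19, 0.92 and 0.95 within libraries. The highest Gjc1 level of all sums, 138 CPM, was in the mixed APM gate at 12 months. The weight of that gate in these r values was not tested. Between Gjb5 and the other members r was between -0.26 and -0.07.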

How the data were processed

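Single-cell libraries of mouse back skin were made with the 10x 3' kit, version 3. The authors aligned reads to mm10 with Cell Ranger and deposited 1 matrix of UMI counts per gene and barcode for each library, not normalized. The matrix headers name Cell Ranger 6.1.2 and 6.0.0, and the submitters' notes 6.1.2.

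A barcode was kept if it held over 200 genes but under 5000, with mitochondrial UMIs below 15%. A cell took the class of its highest mean standardized marker level, if at least 3 markers of that panel were detected, the score reached 0.5 and it led the next by 0.1. Members and gene lists were chosen with earlier results of these data known, and these thresholds were set after gate sizes had been seen. Scrublet's automatic call marked 5, 0 and 3 cells, so it had not worked, and doublets were kept. Removing 40, 133 and 141 cells of highest score was an alternative.

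UMI counts were summed per class and library and tested with edgeR 4.0.16 (R 4.3.3) by the quasi-likelihood test, TMM scaling and filterByExpr, over 14195 genes, with Benjamini-Hochberg adjustment and a threshold of 0.05. The fit held all 43 sums with at least 20 cells, left 21 residual degrees of freedom and had the library as a block, since classes of 1 library share an animal and run. DESeq2 1.42.0, no library term, no filter, RLE size factors, each library left out, a doubled margin, clusters from scanpy 1.11.5, other cell filters and other thinning depths were the alternatives. Leaving out the APM gate at 6 months was added after seeing the data. Intervals are exact Poisson, conditional or Clopper-Pearson intervals at 95%. Other connexins, pannexins and partner genes are named where a sum reached 20 CPM, and each member's 3 nearest genes by r, except for some genes that are not reported here. The tests were run on simulated sums first.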

Additional observations from a re-analysis of the deposited data

Results flagged for a closer look

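Cells that no gate took, and barcodes with 5000 or more genes, entered no comparison, and at 6 months both held more Gja1, Gjb2 and Gjb6 per UMI than at the other ages. In ungated cells Gja1 held 586, 1937 and 248 CPM over the 3 ages (P38, 6 and 12 months), Gjb2 37.96, 565 and 10.8 CPM and Gjb6 4.04, 68.0 and 4.43 CPM. These cells numbered 363, 1253 and 673, with median depths of 14055, 566 and 10579 UMIs. At 6 months they held 25.6% of all Gja1 UMIs of kept cells, 27.1% of Gjb2 and 29.9% of Gjb6. In the 120, 430 and 133 barcodes with 5000 or more genes, Gja1 stood at 532, 1253 and 456 CPM, Gjb2 at 21.8, 420 and 21.9 CPM and Gjb6 at 4.67, 35.1 and 4.52 CPM. With 1 library per age the difference was not tested. Gjb5 in ungated cells was at 12.1, 8.63 and 15.7 CPM, lowest at 6 months.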

How the results depend on the processing

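Of the member fold changes under the alternatives, 300 kept sign and side of the threshold, 33 changed sign without a call, 12 gained a call and 14 lost one, and 1 reversed: Gjb2 in SG over IFE basal, at 2.22 without P38 (-1.73 without 6 months). The cause of these shifts was not tested. With no replicate block, genes called fell to 671 for IFE suprabasal, 1813 for UpHF, 1299 for HF-SC over IFE basal, and to 1 for Niche and 5 for HG over HF-SC, and connexins called to 1 for UpHF and 0 for HG. Niche over HF-SC gave 29 genes in the design used, 52 with DESeq2, 82 with no filter, 56 with clusters, 15 with at least 1000 genes per cell and 4 with no upper limit. HG over HF-SC gave 136, then 221 with DESeq2, 309 with no filter and 525 with clusters. Its connexins called, 1 in the design used, became 2 with DESeq2, 5 with no filter, 4 with a doubled margin, 3 with clusters, 2 with at least 1000 genes and 0 with no upper limit. UpHF gave 2 connexins with clusters and SG 2 with no upper limit. With 1 library left out, genes called ranged over 507 to 1002 (IFE suprabasal), 1508 to 2224 (UpHF), 1727 to 2504 (SG), 1048 to 1546 (HF-SC), 0 to 15 (Niche) and 12 to 70 (HG), and connexins over 1 to 1, 1 to 3, 1 to 3, 0 to 1, 0 to 0 and 0 to 1 in the same order, partly because fewer sums and genes entered. Without 12 months or P38, Niche was left with 1 sum, assumed to vary like the other classes. The log2 ratio of Gja1 in migNiche over Niche was 4.36 with no upper limit. Fibroblast Gja1 was 530.5 CPM at 6 months with no upper limit and 448 CPM at 12 months with clusters. Cells with both Gja1 and Gjb2 at 1000 UMIs came to 52.3% in HG and 50.0% in migNiche at 6 months, and 11.9% in migNiche and 3.85% in UpHF at P38, and at 4000 UMIs to 73.5% and 31.8% in migNiche at 6 months and P38. Of the member levels, 222 stayed and 70 moved beyond their interval, 33 of them with clusters. Gja1 stayed the highest connexin in 82.9% to 87.8% of sums. Depth limits the shallow gates at 6 months, where UpHF, SG and IRS cells had medians of 599, 590 and 576 UMIs, and gates of about 20 cells.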
